A study of Mus musculus with 6 samples.

Results

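The *Hox* genes are the homeobox transcription factor genes that lie in 4 chromosomal clusters, named a to d. All 38 *Hox* genes examined here, of 56748 genes listed for each uterus, were found by symbol. The rule that chose them used no measured value, but it was chosen with earlier results of these data known. Uterine RNA from 6 pregnant mice was sequenced at 1600 h on day 4 of pregnancy, a few hours before embryos attach, with 3 uteri in each of 2 groups. For these samples the paper speaks of uteri and also of endometrium, and the series text of endometrium. The labels give the background as C57BL/6 and the methods as C57BL/6J. The control females, labelled WT, had no iCre (*Ltf*+/+) and carried either a floxed or a wildtype *Gp130*. The *Gp130* ecKO females, labelled as conditional knockouts, were *Ltf* iCre/+; *Gp130* flox/flox. All females were over 8 weeks old and had been mated with wildtype males. *Ltf*-iCre removes *Gp130*, whose gene symbol is *Il6st*, from the uterine epithelium. *Ltf* is also expressed in some immune cells, and stroma, muscle and vessels are not targeted. In this uterine RNA, *Il6st* was listed in *Gp130* ecKO at 77.8, 79.8 and 68.3 TPM (a level scaled for gene length and library size) against 107, 118 and 97.4 TPM in the control (log2 fold change −0.68, edgeR quasi-likelihood test, FDR 0.120).

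*Hox* genes within a cluster are numbered by paralog group, and genes with the same number in different clusters descend from 1 ancestral gene and encode closely similar DNA-binding domains. Along the body axis, genes at the low-numbered end act towards the head and those at the high-numbered end towards the tail, and in the female reproductive tract *Hoxa9*, *Hoxa10*, *Hoxa11* and *Hoxa13* pattern the oviduct, the uterus, the lower uterus with the cervix, and the vagina. In the adult uterus, *Hoxa10* and *Hoxa11* are progesterone-responsive genes of the stroma, and mice that lack either of them have impaired implantation and decidualization. The comparison asks which of these genes the day 4 uterus expressed and whether the level at each cluster position differed when the epithelium had lost *Gp130*.

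The 180 bases that encode the homeodomain are the part by which members are recognized, and the sequences of paralog groups 10 and 11 in clusters a and d are shown because *Hoxa10*, *Hoxa11*, *Hoxd10* and *Hoxd11*, on which the results below turn, belong to them. They were read from the GENCODE M39 coding sequences on GRCm39, on the strand of the gene. *Hoxa10* (chr6:52209534-52209713) and *Hoxa11* (chr6:52220382-52220561) lie on the minus strand. *Hoxd10* (chr2:74524485-74524664) and *Hoxd11* (chr2:74514261-74514440) lie on the plus strand. Each stretch lies within 1 coding exon. The a members are in lower case, and capitals in a d member mark the bases that differ from the a member of the same number.
Hoxa10: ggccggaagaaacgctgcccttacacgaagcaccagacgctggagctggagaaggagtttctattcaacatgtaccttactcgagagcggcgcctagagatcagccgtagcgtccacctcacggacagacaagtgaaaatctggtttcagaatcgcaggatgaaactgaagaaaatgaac
Hoxd10: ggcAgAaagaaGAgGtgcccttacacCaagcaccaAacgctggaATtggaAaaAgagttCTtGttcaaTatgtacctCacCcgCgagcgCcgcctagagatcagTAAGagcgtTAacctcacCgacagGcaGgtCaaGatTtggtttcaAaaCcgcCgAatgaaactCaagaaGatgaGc
Hoxa11: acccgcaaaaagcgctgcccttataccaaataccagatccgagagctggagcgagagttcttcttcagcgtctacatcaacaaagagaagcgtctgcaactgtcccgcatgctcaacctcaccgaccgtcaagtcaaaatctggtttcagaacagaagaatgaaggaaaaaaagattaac
Hoxd11: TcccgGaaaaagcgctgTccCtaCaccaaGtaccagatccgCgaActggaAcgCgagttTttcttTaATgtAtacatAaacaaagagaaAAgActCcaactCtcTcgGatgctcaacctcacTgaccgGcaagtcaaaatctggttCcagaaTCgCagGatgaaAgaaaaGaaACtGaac
Identity was 78.9% between *Hoxa10* and *Hoxd10* and 80.6% between *Hoxa11* and *Hoxd11*. Among all pairs of members, the 40 pairs within a paralog group had a median identity of 80.6% and the 663 pairs across groups one of 60.6%. The longest run of identical bases in any pair of homeoboxes was 52 bases, shorter than a read of 75 bases.

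The 16 *Hox* genes expressed in the day 4 uterus, taken as those with at least 1 TPM in every one of the 6 uteri, came from clusters a, b and d. They were *Hoxa7*, *Hoxa9*, *Hoxa10* and *Hoxa11*, then *Hoxb2* to *Hoxb9*, and *Hoxd8* to *Hoxd11*. No member of cluster c reached that level in all uteri. The share of *Hox* genes expressed was 42.1%, beside 22.3% of all listed genes. *Hoxa7* lay just inside the limit, with 1.00 TPM in its lowest uterus, and *Hoxc6* just outside it, at 0.50 to 1.70 TPM. The genes at the tail end of all clusters were near 0: members of paralog group 13 summed to at most 0.14 TPM and those of group 12 to at most 0.04 TPM in any uterus. *Hoxb13*, *Hoxc12* and *Hoxd1* were listed at 0 in all 6 uteri. Altogether 15 members had too few reads to be tested, and their highest value was 1.28 TPM, for *Hoxa5* in control uterus 3.

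**Figure D1:**
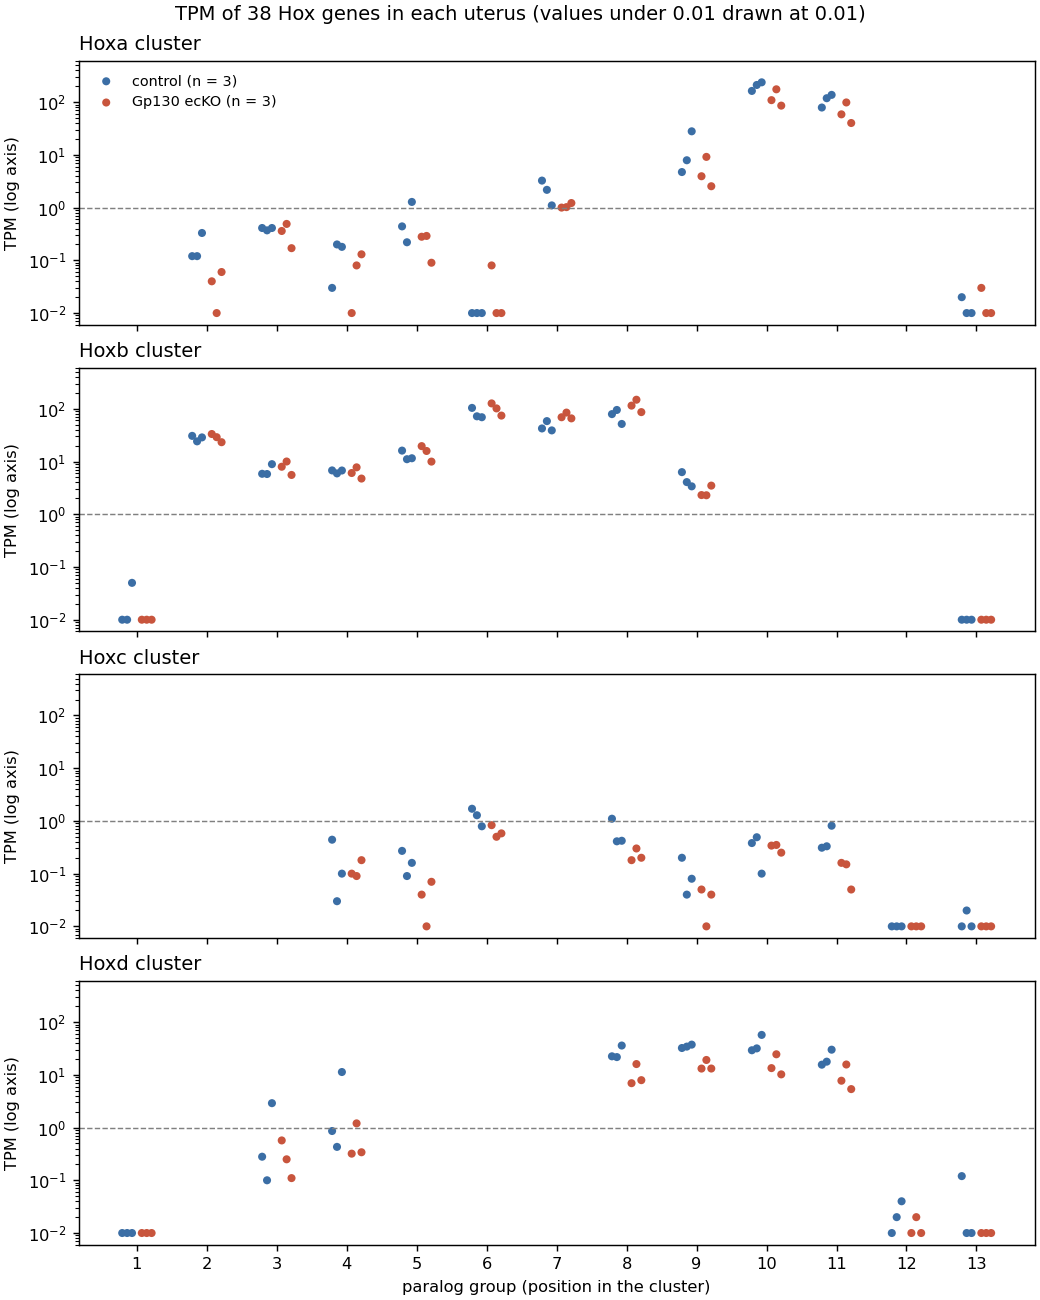
TPM of each of the 38 *Hox* genes (log axis, values under 0.01 drawn at 0.01) against paralog group, 1 panel per cluster, with 1 point per uterus (control in blue, *Gp130* ecKO in red, n = 3 each) and a dashed line at 1 TPM. The expressed members are groups 7 to 11 of cluster a, groups 2 to 9 of cluster b and groups 8 to 11 of cluster d, and cluster c stays at or below 1.70 TPM.

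In the control, *Hoxa10* had the highest mean TPM, followed by *Hoxa11*, *Hoxb6*, *Hoxb8*, *Hoxb7*, *Hoxd10*, *Hoxd9*, *Hoxb2*, *Hoxd8* and *Hoxd11*. In *Gp130* ecKO the order was *Hoxa10*, *Hoxb8*, *Hoxb6*, *Hoxb7*, *Hoxa11*, *Hoxb2*, *Hoxd10* and *Hoxd9*. In the control, the mean was 204 ± 37.7 TPM for *Hoxa10* and 112 ± 29.8 TPM for *Hoxa11* (SD, n = 3). The values of *Hoxb8*, *Hoxb6* and *Hoxa11* overlapped in the control, as did those of *Hoxd8*, *Hoxd9* and *Hoxd10*, so their order is not set by these uteri. *Hoxa10* was the highest member in every control uterus. In *Gp130* ecKO uterus 1, *Hoxb6* at 126 TPM and *Hoxb8* at 115 TPM stood above *Hoxa10* at 109 TPM, and in uterus 3 *Hoxb8* at 86.4 TPM stood beside *Hoxa10* at 85.8 TPM.

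Of the 23 members with enough reads for a test, none passed an FDR under 0.05 with more than 2-fold change in edgeR's quasi-likelihood test, in which 0.157% of the 16605 genes tested passed. The smallest FDR was 0.0548, for *Hoxd9*. At an unadjusted p under 0.05, 11 of the 23 members (47.8%) differed beside 25.0% of all genes. Without *Gp130* ecKO uterus 3, it was 6 of the 24 then tested, beside 22.2% of all genes. Of the 11, 10 were lower in *Gp130* ecKO (43.5% of the 23, beside 12.9% of all genes) and 1 was higher (beside 12.1%). The lower 10 were *Hoxa9*, *Hoxa10*, *Hoxa11*, *Hoxc6*, *Hoxc8*, *Hoxc11* and *Hoxd8* to *Hoxd11*, and the higher one was *Hoxb7*. Other tests of the same counts called 4 or 5 members. edgeR's exact test and DESeq2 both called *Hoxd8*, *Hoxd9*, *Hoxd10* and *Hoxd11*, beside 7.54% and 9.31% of all genes. edgeR's likelihood ratio test called these and *Hoxc11*, beside 7.93% of all genes. The legacy form of the quasi-likelihood test and limma-voom called none. Log2 fold changes of the 23 members had a median of −0.85, beside −0.05 for all genes tested, and 18 of the 23 were below 0, beside 52.9% of all genes.

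**Figure D2:**
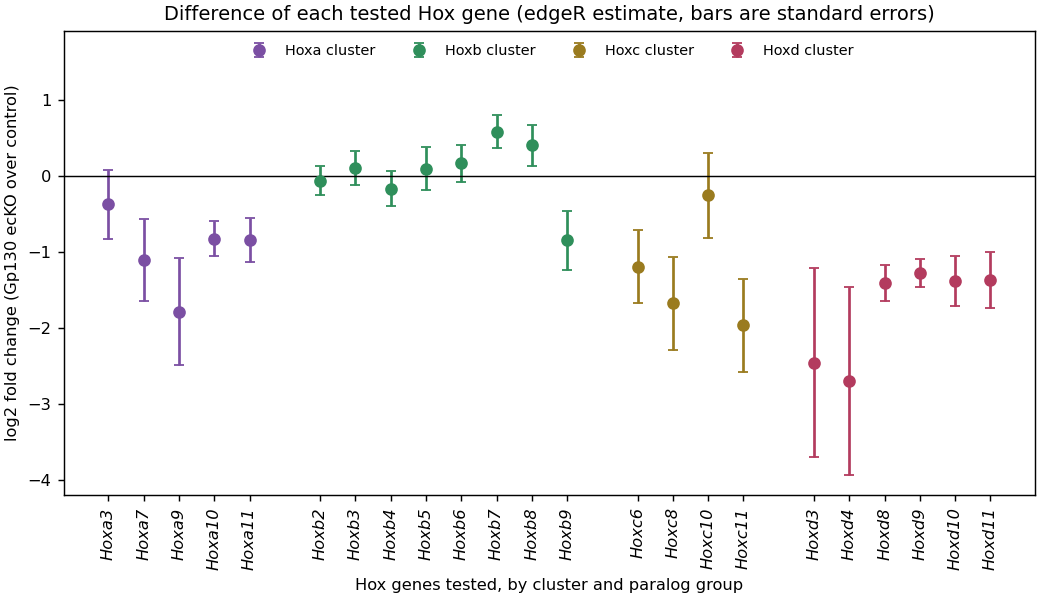
Log2 fold change of *Gp130* ecKO over control (edgeR estimate, bars are standard errors, n = 3 uteri a group) of the 23 tested *Hox* genes, by cluster and paralog group. *Hoxd8* to *Hoxd11* lie between −1.41 and −1.28, *Hoxa10* and *Hoxa11* at −0.83 and −0.85, and *Hoxb2* to *Hoxb8* between −0.17 and 0.58.

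*Hoxd8*, *Hoxd9*, *Hoxd10* and *Hoxd11*, neighbours on chromosome 2, were all lower in the *Gp130* ecKO uteri by 2.43 to 2.65-fold. *Hoxd8* was at 22.4, 21.7 and 35.9 TPM in control uteri 1 to 3 and at 6.94, 16 and 7.92 TPM in *Gp130* ecKO uteri 1 to 3. *Hoxd9*, the most even of the 4, was at 32.2, 34.3 and 37.4 TPM in the control and at 13.1, 19.1 and 13.2 TPM in *Gp130* ecKO. Neither gene had overlapping groups, and *Gp130* ecKO uterus 2 was the highest of its group. *Hoxd10* stood at 29.2, 31.7 and 57.1 TPM in the control against 13.4, 24.5 and 10.2 TPM. *Hoxd11* stood at 15.6, 17.8 and 30.0 TPM against 7.73, 15.7 and 5.36 TPM. In these genes control uterus 3 was the highest of all, and *Hoxd11* of *Gp130* ecKO uterus 2 reached the lowest control uterus on the TPM scale. In CPM, counts scaled to library size by TMM for the test, the groups did not overlap for any of the 4. *Hoxd11* there was at 22.8, 24.3 and 43.1 CPM in the control and at 9.22, 17.0 and 8.50 CPM in *Gp130* ecKO.

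By edgeR's quasi-likelihood test, the log2 fold change was −1.28 ± 0.18 for *Hoxd9* (SE, FDR 0.0548) and −1.41 ± 0.24 for *Hoxd8* (FDR 0.0633). *Hoxd10* gave −1.39 ± 0.33 (edgeR FDR 0.0897) and *Hoxd11* −1.37 ± 0.37 (edgeR FDR 0.102). The values stayed below −1 when any 1 uterus was left out, with ranges of −1.59 to −1.27 for *Hoxd8*, −1.40 to −1.18 for *Hoxd9*, −1.73 to −1.08 for *Hoxd10* and −1.75 to −1.02 for *Hoxd11*. With control uterus 2 left out, *Hoxd8* and *Hoxd9* were called (edgeR FDR 0.0339 and 0.0297), beside 5.20% of the 17142 genes then tested. With any other uterus left out, their edgeR FDRs rose, to 0.112 to 0.184 for *Hoxd8* and 0.110 to 0.154 for *Hoxd9*. DESeq2's adjusted p was smaller, at 3.37e-05 for *Hoxd8*, 9.02e-08 for *Hoxd9*, 0.00484 for *Hoxd10* and 0.0113 for *Hoxd11*. FDRs of the 4 genes were also smaller by the exact test (2.25e-05 to 0.0197). The same held for the likelihood ratio test (2.21e-05 to 0.0183). In the legacy quasi-likelihood form the FDRs were larger, at 0.0671, 0.063, 0.0971 and 0.1095 for *Hoxd8* to *Hoxd11*. By limma-voom only that of *Hoxd9* was smaller, at 0.054, and the others were 0.0671, 0.0957 and 0.1099. An exact two-sided permutation test of the 6 uteri gave p = 0.1 for each of the 4, the smallest value that its 20 arrangements allow.

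**Figure D3:**
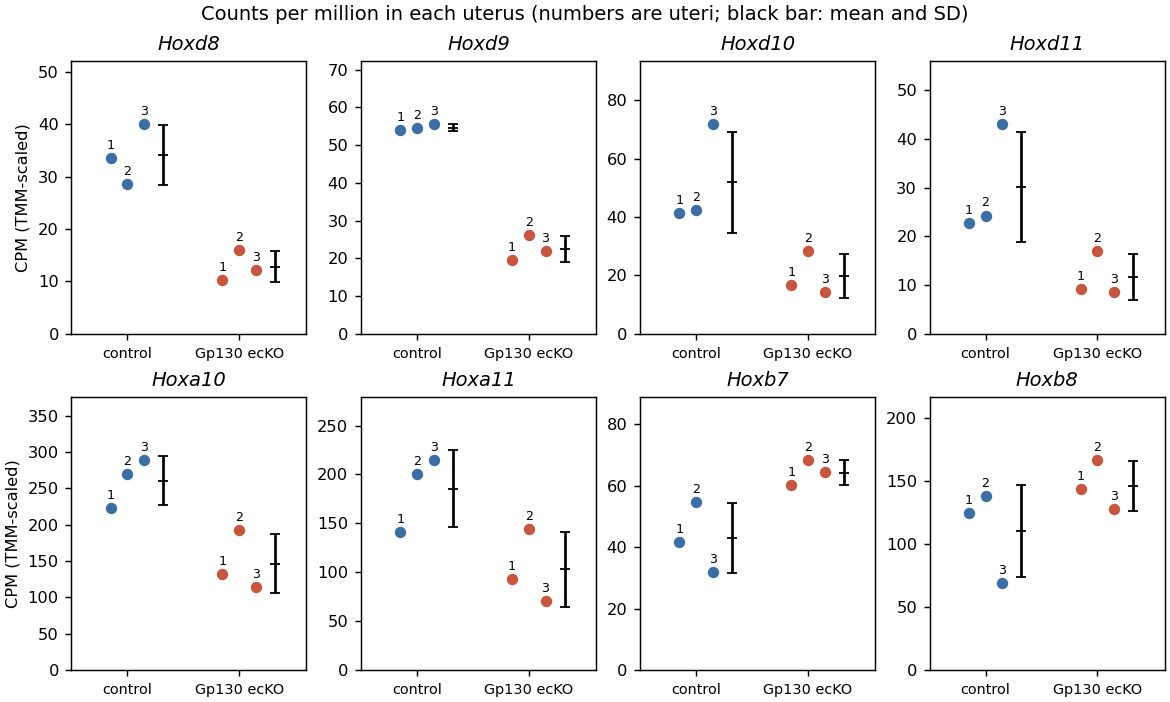
TMM-scaled CPM (linear axes from 0) of 8 *Hox* genes in each uterus, control in blue and *Gp130* ecKO in red, with the uterus number above each point and the mean and SD as a black bar (n = 3). *Hoxd8* to *Hoxd11* and *Hoxa10* are lower in all *Gp130* ecKO uteri, *Hoxb7* is higher in all, and *Hoxa11* and *Hoxb8* overlap.

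*Hoxa10* and *Hoxa11*, the cluster a members tied to uterine stroma, were lower in value by 1.78 and 1.81-fold. *Hoxa10* was at 163, 211 and 237 TPM in the control and at 109, 175 and 85.8 TPM in *Gp130* ecKO. Uterus 2 of the *Gp130* ecKO group lay above control uterus 1, so the groups overlapped in TPM. In CPM they did not, with 223, 270 and 289 in the control against 132.5, 192.5 and 115 (log2 fold change −0.83 ± 0.23, edgeR FDR 0.105). *Hoxa11* was at 79.0, 119 and 137 TPM in the control and at 58.6, 98.6 and 40.2 TPM in *Gp130* ecKO, and its groups overlapped on both scales (−0.85 ± 0.29, edgeR FDR 0.141). DESeq2 passed *Hoxa10* at an adjusted p of 0.0246, as it did 13.4% of all genes, but its change was under the 2-fold limit, and DESeq2 gave *Hoxa11* 0.0708. The ratio of *Hoxa11* to *Hoxa10* TPM averaged 0.541 in the control and 0.523 in *Gp130* ecKO, with overlapping uteri, and was not tested.

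*Hoxa9* and *Hoxa7* were low members of cluster a. *Hoxa9* was at 4.72, 7.90 and 27.9 TPM in the control and at 3.93, 9.15 and 2.54 TPM in *Gp130* ecKO (log2 fold change −1.79 ± 0.70, edgeR FDR 0.174). Control uterus 3 alone stood high, and without it the log2 fold change was −0.54. *Hoxa7* was at 3.25, 2.17 and 1.10 TPM against 1.00, 1.02 and 1.22 TPM (−1.11 ± 0.54, edgeR FDR 0.247). Control uterus 1 was the highest, control uterus 2 also lay above all *Gp130* ecKO uteri, and control uterus 3 lay among them in TPM. In CPM, control uterus 3 at 1.13 lay below all *Gp130* ecKO uteri, at 1.27 to 1.91. Without control uterus 1 the log2 fold change was −0.58.

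Cluster b was the only one in which most tested members had a log2 fold change above 0. This majority was lost without *Gp130* ecKO uterus 1, when *Hoxb5* was at −0.13 and *Hoxb6* at −0.02. It was also lost without control uterus 2, when *Hoxb5* was no longer above 0. The same held without *Gp130* ecKO uterus 2, when *Hoxb3* was at −0.01. *Hoxb7* was at 42.3, 58.4 and 38.9 TPM in the control and at 69.1, 84.7 and 65.8 TPM in *Gp130* ecKO, with no overlap (log2 fold change 0.58 ± 0.22, edgeR FDR 0.160). *Hoxb8* was at 79.2, 95.0 and 51.5 TPM against 115, 148 and 86.4 TPM, and the groups overlapped (0.40 ± 0.27, edgeR FDR 0.380). Its log2 fold change was 0.15 without control uterus 3. *Hoxb6* was at 104, 72.0 and 69.1 TPM in the control and at 126, 102 and 74.3 TPM in *Gp130* ecKO, again with overlap. The head-end members of the cluster, which pattern the hindbrain in the embryo, were lower in level. *Hoxb2* had 30.6, 24.1 and 28.6 TPM in the control and 33.2, 28.9 and 23.2 TPM in *Gp130* ecKO. *Hoxb3* had 5.85, 5.79 and 8.91 TPM against 7.96, 10 and 5.56 TPM, and *Hoxb4* 6.78, 5.95 and 6.75 TPM against 6.05, 7.75 and 4.75 TPM. *Hoxb5* had 16.1, 11.1 and 11.5 TPM against 19.6, 15.8 and 9.96 TPM. Log2 fold changes of *Hoxb2* to *Hoxb6* ranged from −0.17 to 0.16, and all 5 genes overlapped between the groups. *Hoxb9*, the tail-end member expressed, had 6.29, 4.07 and 3.38 TPM in the control and 2.31, 2.29 and 3.49 TPM in *Gp130* ecKO, with overlap (−0.85 ± 0.39, edgeR FDR 0.219). Without control uterus 1 its value was −0.49, and its difference from its neighbours was not tested.

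Cluster c contributed little RNA, and all of its tested members were lower in value. *Hoxc6* was at 1.70, 1.28 and 0.79 TPM in the control and at 0.83, 0.50 and 0.58 TPM in *Gp130* ecKO (log2 fold change −1.20 ± 0.48, edgeR FDR 0.184). *Hoxc8* at 0.41 to 1.10 TPM against 0.18 to 0.30 TPM gave −1.68 ± 0.61 (edgeR FDR 0.154), and −0.91 without control uterus 1. *Hoxc11* at 0.31 to 0.81 TPM against 0.05 to 0.16 TPM gave −1.97 ± 0.61 (edgeR FDR 0.118) and rested on at most 17 reads in any uterus. *Hoxc10* gave −0.26 ± 0.56 and changed sign to 0.12 without control uterus 2.

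*Hoxd3* and *Hoxd4* had the largest estimates of all members and were set by 1 uterus. *Hoxd4* was at 0.86, 0.43 and 11.3 TPM in the control and at 0.32, 1.20 and 0.34 TPM in *Gp130* ecKO (log2 fold change −2.70 ± 1.24, edgeR FDR 0.223). *Hoxd3* was at 0.28, 0.10 and 2.90 TPM against 0.57, 0.25 and 0.11 TPM (−2.46 ± 1.24, edgeR FDR 0.259). Without control uterus 3 the values were −0.17 for *Hoxd4* and 0.03 for *Hoxd3*. On the same strand, 59.0% of the 75-base stretches of *Hoxd3* and 43.6% of those of *Hoxd4* also occur in each other or in the gene model *Gm28230*, and reads from these depend on how RSEM divided them. Such sharing was 6.7% for *Hoxd11*, with many genes, and 1.7% for *Hoxd10*, with *Gm28309*. *Hoxd8* and *Hoxd9* shared none. Control uterus 3, with an expected count of 13960748 in all against 22930513 to 25906443 in the other uteri, was also the highest in TPM for *Hoxa2*, *Hoxa5*, *Hoxa9*, *Hoxa10*, *Hoxa11*, *Hoxc11* and *Hoxd8* to *Hoxd11*. Without it the log2 fold change was −0.75 for *Hoxa10*, −0.74 for *Hoxa11*, −1.28 for *Hoxd8*, −1.27 for *Hoxd9*, −1.08 for *Hoxd10*, −1.02 for *Hoxd11* and −1.54 for *Hoxc11*.

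CPM of the control and *Gp130* ecKO did not overlap for 8 of 23 members (34.8%, beside 31.3% of all genes). Of these, 7 were lower (*Hoxa10*, *Hoxc8*, *Hoxc11* and *Hoxd8* to *Hoxd11*, beside 15.6% of all genes) and 1 was higher (*Hoxb7*, beside 15.7%). With *Hoxa10* and *Hoxd11* overlapping in TPM, the expressed members apart on that scale were *Hoxb7*, *Hoxd8*, *Hoxd9* and *Hoxd10*. The share of all genes apart in TPM is not given here, so this list has no background beside it.

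The makeup of the *Hox* RNA within each uterus differed in value between the groups, which was not tested. Cluster b held 45.0%, 38.1% and 27.3% of the summed TPM of the 38 genes in control uteri 1 to 3, and 63.6%, 52.4% and 61.9% in *Gp130* ecKO uteri 1 to 3. Cluster a held 38.8%, 46.97% and 50.6% in the control against 29.1%, 37.3% and 29.4%. Cluster d held 15.6%, 14.6% and 21.8% against 7.06%, 10.1% and 8.39%. None of these 3 shares overlapped between the groups, and they also stayed apart when expected counts were used in place of TPM (24.7 to 41.5% against 48.4 to 59.0% for cluster b). For cluster a the counts were apart only narrowly, at 41.26 to 53.6% against 32.3 to 41.0%. Because shares are taken within a uterus, they do not depend on how libraries are scaled to each other, but a lower share of some clusters raises the others. In summed TPM, cluster a was at 333 ± 77.8 in the control and 196 ± 79.7 in *Gp130* ecKO, cluster b at 262 ± 38.2 and 351 ± 67.7, cluster c at 3.18 ± 1.06 and 1.49 ± 0.185, and cluster d at 127 ± 41.2 and 52.0 ± 21.6 (SD, n = 3). The sums overlapped for clusters a and b and did not for c and d. For cluster b the log2 ratio of the sums was 0.42 in TPM, 0.28 in FPKM and 0.25 in CPM. For clusters a, c and d it was negative on each of these scales. The ratio of *Hoxb8* to *Hoxa10* TPM was 0.217 to 0.486 in the control and 0.848 to 1.05 in *Gp130* ecKO. This pair was picked after its values were seen and was not tested.

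**Figure D4:**
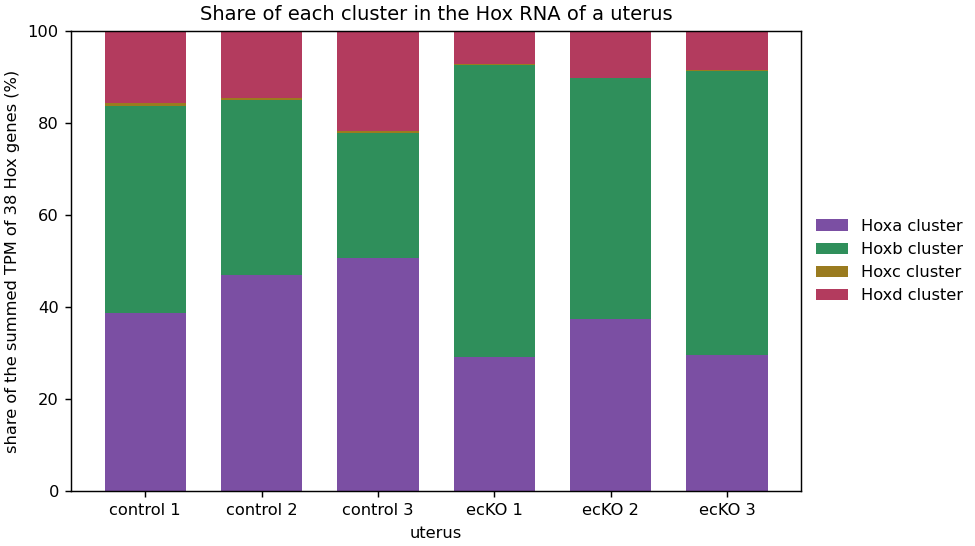
Share of each cluster in the summed TPM of 38 *Hox* genes (%), 1 stacked bar per uterus. Cluster b takes 27.3 to 45.0% of the bar in the control uteri and 52.4 to 63.6% in the *Gp130* ecKO uteri, and cluster d 14.6 to 21.8% and 7.06 to 10.1%.

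Summed by paralog group, groups 4 and 9 to 11 were lower in value in *Gp130* ecKO and groups 6 to 8 were higher, and of these sums only those of groups 7 and 9 did not overlap. The log2 ratios of the sums were 0.03, 0.03 and 0.17 for groups 2, 3 and 5, and those of groups 2 and 3 were below 0 in FPKM, at −0.11 and −0.12. For groups 6 and 8 the log2 ratios were 0.29 and 0.31 in TPM, and 0.15 and 0.17 in FPKM. Group 4 summed to 11.02 ± 6.38 TPM in the control and 6.997 ± 1.92 TPM in *Gp130* ecKO, and without control uterus 3 the control mean was 7.36 TPM. Group 6 summed to 82.9 ± 19.7 against 101 ± 26.2 TPM. Group 9 summed to 52.8 ± 13.9 TPM in the control and 23.1 ± 6.48 TPM in *Gp130* ecKO without overlap, with *Hoxd9* its highest member. Group 10 summed to 244 ± 51.0 against 140 ± 53.8 TPM and group 11 to 133 ± 36.7 against 75.5 ± 35.3 TPM, both with overlap. Group 7, which is mostly *Hoxb7*, summed to 48.7 ± 10.6 against 74.3 ± 10.01 TPM and did not overlap. Group 8 joined members that went opposite ways in value, *Hoxb8* at 0.40 and *Hoxd8* at −1.41, and its sums overlapped. The difference between these estimates was not tested.

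Noncoding RNAs of the clusters were read beside their coding neighbours. Of 13 listed noncoding RNAs and flanking *Evx* genes, 12 were in the files and 4 were tested, with a median log2 fold change of −0.42. *Hoxa11os*, antisense to *Hoxa11*, was at 102, 119 and 121 TPM in the control and at 74.8, 103 and 44.2 TPM in *Gp130* ecKO (−0.72 ± 0.23, edgeR FDR 0.130). It shares 31.9% of the 75-base stretches of *Hoxa11* on the other strand. The libraries were strand-specific, but whether strand was used in counting is not given in the sources used here, so reads of this pair may not have been told apart. *Hoxd3os1* was at 8.57, 6.71 and 8.97 TPM against 3.61, 4.10 and 4.04 TPM, without overlap (−1.11 ± 0.34, edgeR FDR 0.119). *Hoxb5os* went from 4.91, 6.71 and 6.12 TPM to 16.2, 7.87 and 11.1 TPM (0.88 ± 0.38, edgeR FDR 0.204), and *Hoxb3os* gave −0.12 ± 0.42. *Hoxb3os* also covers 50.7% of *Hoxb3* and 25.2% of *Hoxb2* on the other strand. *Hotair*, *Hottip*, *Evx1* and *Evx2* were at or near 0.

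TALE cofactors, the *Pbx*, *Meis* and *Pknox* proteins that bind DNA together with HOX proteins, were at 0.85 TPM or more in every uterus. None of the 9 passed an unadjusted p under 0.05, by edgeR, and their median log2 fold change was −0.36. *Meis1* was at 16.3, 18.3 and 12.6 TPM in the control and 23.7, 26.0 and 19.6 TPM in *Gp130* ecKO, without overlap (0.49 ± 0.21, edgeR FDR 0.202). Of 22 Polycomb and trithorax regulators, which hold *Hox* clusters silent or active, 19 were tested, with a median of −0.03, and 3 had an unadjusted p under 0.05, beside 25.0% of all genes. *Ezh2*, the main methyltransferase of Polycomb complex PRC2, was at 27.4, 17.3 and 37.3 TPM against 7.20, 13.6 and 12.3 TPM (−1.08 ± 0.36, edgeR FDR 0.133). *Ezh1*, its paralog, gave 0.53 ± 0.22 (edgeR FDR 0.189). *Kdm6a*, a demethylase of the same histone mark, was at 12.6, 25.2 and 23.0 TPM against 46.1, 63.0 and 34.1 TPM (0.88 ± 0.24, edgeR FDR 0.104). None of these was called by edgeR's quasi-likelihood test, and DESeq2 called 1 of the 19, *Ezh2*, beside 9.31% of all genes. *Cdx1*, *Cdx2* and *Cdx4*, which act upstream of *Hox* genes in the embryo, were at or near 0.

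Genes linked to *Hoxa10* or *Hoxa11* in the uterus by background knowledge moved in both directions in value. Of 9 listed, 8 were tested, and 6 had an unadjusted p under 0.05, 3 lower and 3 higher, with a median of 0.66, beside 12.9% of all genes lower and 12.1% higher. *Ptger3*, a prostaglandin E2 receptor gene, was at 17.8, 17.5 and 14.4 TPM in the control and at 7.57, 5.69 and 7.02 TPM in *Gp130* ecKO (−1.28 ± 0.25, edgeR FDR 0.0677). *Ccnd3*, a cyclin of decidual cells, gave −0.65 ± 0.20 (edgeR FDR 0.119), and *Itgb3*, an integrin subunit, −0.70 ± 0.28 (edgeR FDR 0.179). The 3 higher genes were *Emx2*, a homeobox gene that HOXA10 represses, the receptor gene *Ptger4*, and *Lif*, whose product signals through GP130. *Emx2* was at 38.1, 46.98 and 25.7 TPM against 73.5, 88.1 and 66.9 TPM (0.82 ± 0.22, edgeR FDR 0.0979). *Ptger4* gave 1.15 ± 0.31 (edgeR FDR 0.102) and *Lif* 1.52 ± 0.53 (edgeR FDR 0.148). edgeR's exact test called *Ptger3* and *Ptger4*, beside 7.54% of all genes, and DESeq2 called these and *Lif*, beside 9.31%.

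Stromal, endothelial and epithelial markers differed in value between the same groups, though none was called by edgeR's quasi-likelihood test. edgeR's exact test called 2 stromal, 3 endothelial and 2 epithelial markers, beside 7.54% of all genes. DESeq2 called 2 stromal, 4 endothelial and 2 epithelial markers, beside 9.31%. All 7 stromal markers were lower in value, 4 of them at an unadjusted edgeR p under 0.05 (beside 12.9% of all genes), with a median of −0.77 and a summed level of 1626 to 1944 TPM in the control against 926.5 to 1281 TPM in *Gp130* ecKO. All 5 endothelial markers were lower at an unadjusted edgeR p under 0.05 (beside 12.9% of all genes), with a median of −1.26 and sums of 156 to 333 TPM against 79.2 to 157 TPM. Of 7 epithelial markers, 6 were higher in value, 3 of them at an unadjusted edgeR p under 0.05 (beside 12.1% of all genes), with a median of 0.74 and sums of 1242 to 2018 TPM against 3139 to 4761 TPM. Smooth muscle markers had a median of −0.22. Their sums ranged from 414 to 2008 TPM in the control against 361 to 2310 TPM, so they varied widely within each group. Muscle was thus present in samples that the series text calls endometrium. In RNA of mixed uterine cells, fewer cells of a type and less RNA per cell cannot be told apart. The part of these markers in the *Hox* differences was not tested. Set against stromal markers within each uterus, *Hoxd9* and *Hoxa10* overlapped between the groups: the ratio of *Hoxd9* to *Hand2* TPM was 0.668, 1.05 and 0.685 in the control and 0.625, 0.549 and 1.03 in *Gp130* ecKO, and that of *Hoxa10* to *Vim* 0.229, 0.331 and 0.410 against 0.451, 0.357 and 0.244. The ratios of *Hoxd9* to *Vim*, *Hoxa10* to *Hand2* and *Hoxd8* to *Hand2* and *Vim* also overlapped. So did those of *Hoxd9* and *Hoxa10* to the stromal marker *Col1a1*. Relative to *Hoxa10*, *Hoxd9* was lower without overlap, at 0.158 to 0.198 against 0.109 to 0.153. *Hoxd10* relative to *Hoxa10* was lower without overlap too, at 0.15 to 0.2407 in the control against 0.1189 to 0.1401 in *Gp130* ecKO. *Hoxd11* relative to *Hoxa11* overlapped, at 0.1498 to 0.218 against 0.132 to 0.159. These ratios were chosen with the values known and were not tested. Mesothelial markers had a median of −0.83 with overlapping sums of 17.8 to 74.4 TPM and 20.6 to 46.8 TPM, macrophage markers one of −0.08, and lymphocyte markers one of −0.37. Of the 5 gland markers, with a median of 0.26, *Prss29* ranged from 1.99 to 8224 TPM.

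**Figure D5:**
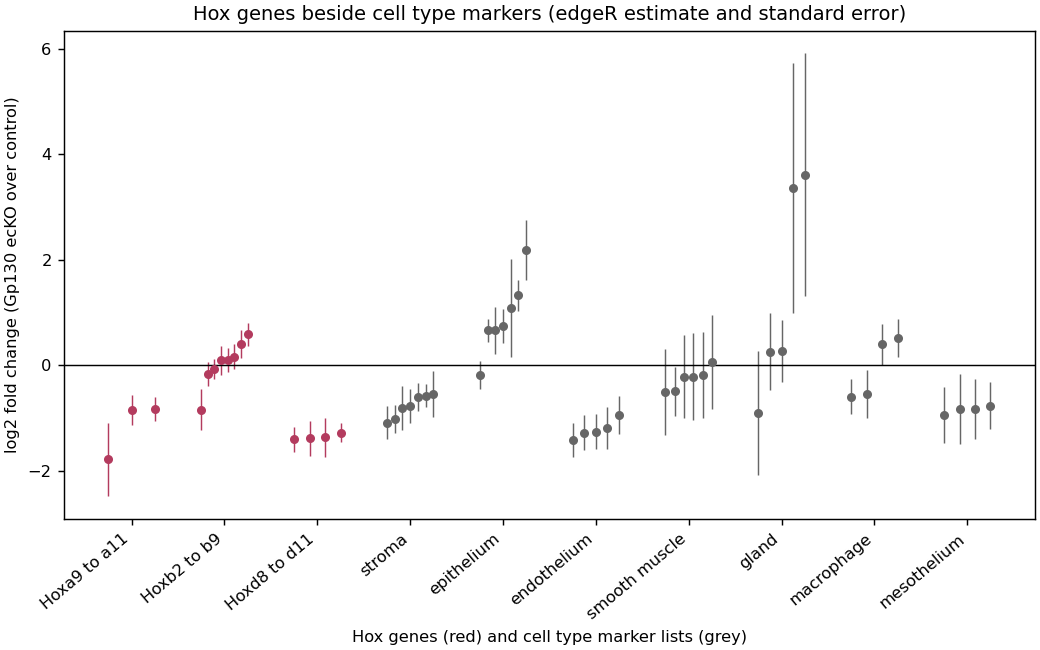
Log2 fold change of *Gp130* ecKO over control (edgeR estimate and standard error, n = 3 uteri a group) for *Hox* genes in red and tested markers of 7 cell types in grey, 1 point per gene. *Hoxd8* to *Hoxd11* lie in the range of the endothelial markers (median −1.26) and below the stromal median of −0.77, and *Hoxb2* to *Hoxb6* lie around 0.

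Markers of the oviduct and of the cervix and vagina were also read, because *Hox* genes differ in level along the tract. Of the 4 oviduct markers, 2 were higher and 1 was lower at an unadjusted edgeR p under 0.05, beside 12.1% and 12.9% of all genes. *Ovgp1* rose from 23.8, 44.0 and 29.1 TPM to 342, 716 and 274 TPM (3.68 ± 0.40, edgeR FDR 0.0377), while the cilia genes *Foxj1*, *Dnah5* and *Rsph1* were at or below 1.68 TPM in every uterus, with log2 fold changes of 2.11, −2.10 and 0.28. The list for the stratified epithelium of cervix and vagina summed to 0.83 to 3.36 TPM in the control and 2.31 to 6.16 TPM in *Gp130* ecKO. Both of its tested members were higher at an unadjusted edgeR p under 0.05 (beside 12.1% of all genes) without overlap (beside 15.7%), *Krt13* at 0.06 to 0.84 TPM against 1.67 to 4.90 TPM (log2 fold change 3.54) and *Trp63* at 0.14 to 0.37 TPM against 0.58 to 0.82 TPM (1.46). edgeR's exact test and DESeq2 each called 1 of them, beside 7.54% and 9.31% of all genes, and *Krt5*, the basal keratin of such epithelia, was at or below 0.02 TPM in every uterus. The part of these tissues in the *Hox* differences was not tested. *Hoxa13*, the member of the vagina, was at or below 0.03 TPM.

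Promoter sequences are given for the members that passed an FDR of 0.05 in any of the tests and had an entry, *Hoxa10* and *Hoxd8* to *Hoxd11*, because the 4 *Hoxd* genes went together. *Hoxc11* had no entry. They are the 250 bases before the start from RefSeq on GRCm38.p6, another build than the gene positions above, on the strand of the gene, with CpG dinucleotides in capitals. RefSeq lists 2 starts each for *Hoxa10* and *Hoxd11*.
Hoxd8, chr2:74704365-74704614, plus strand: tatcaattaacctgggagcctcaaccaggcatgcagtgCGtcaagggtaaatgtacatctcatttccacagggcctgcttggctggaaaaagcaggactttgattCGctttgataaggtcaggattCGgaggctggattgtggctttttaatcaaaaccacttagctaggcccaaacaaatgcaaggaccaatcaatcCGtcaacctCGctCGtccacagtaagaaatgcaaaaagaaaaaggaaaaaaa
Hoxd9, chr2:74697513-74697762, plus strand: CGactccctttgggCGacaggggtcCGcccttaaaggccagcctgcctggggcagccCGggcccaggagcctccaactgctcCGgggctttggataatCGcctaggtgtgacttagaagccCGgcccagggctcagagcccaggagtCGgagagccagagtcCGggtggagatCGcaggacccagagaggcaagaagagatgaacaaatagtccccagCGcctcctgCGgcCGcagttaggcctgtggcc
Hoxd10, chr2:74691641-74691890, plus strand: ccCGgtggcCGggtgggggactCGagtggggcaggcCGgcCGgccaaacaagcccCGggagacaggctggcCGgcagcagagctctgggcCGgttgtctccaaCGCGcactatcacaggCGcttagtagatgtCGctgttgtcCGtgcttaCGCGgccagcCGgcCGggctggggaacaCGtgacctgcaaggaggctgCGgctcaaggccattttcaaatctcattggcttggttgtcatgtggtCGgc
Hoxd11, first start, chr2:74679308-74679557, plus strand: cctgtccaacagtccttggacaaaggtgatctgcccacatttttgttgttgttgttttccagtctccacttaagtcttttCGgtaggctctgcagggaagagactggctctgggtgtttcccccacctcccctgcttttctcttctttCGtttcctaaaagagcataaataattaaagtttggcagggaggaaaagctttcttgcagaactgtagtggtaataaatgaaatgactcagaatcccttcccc
Hoxd11, second start, chr2:74682073-74682322, plus strand: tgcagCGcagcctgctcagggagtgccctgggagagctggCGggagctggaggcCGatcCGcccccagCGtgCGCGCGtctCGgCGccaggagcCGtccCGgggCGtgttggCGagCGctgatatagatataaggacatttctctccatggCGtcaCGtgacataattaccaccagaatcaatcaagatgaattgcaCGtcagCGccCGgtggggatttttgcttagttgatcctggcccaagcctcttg
Hoxa10, first start, chr6:52240855-52241104, minus strand: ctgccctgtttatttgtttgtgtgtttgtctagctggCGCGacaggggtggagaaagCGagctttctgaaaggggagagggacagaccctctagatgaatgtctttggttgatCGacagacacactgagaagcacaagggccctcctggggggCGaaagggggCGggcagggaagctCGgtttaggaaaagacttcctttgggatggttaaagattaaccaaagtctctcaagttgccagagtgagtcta
Hoxa10, second start, chr6:52234940-52235189, minus strand: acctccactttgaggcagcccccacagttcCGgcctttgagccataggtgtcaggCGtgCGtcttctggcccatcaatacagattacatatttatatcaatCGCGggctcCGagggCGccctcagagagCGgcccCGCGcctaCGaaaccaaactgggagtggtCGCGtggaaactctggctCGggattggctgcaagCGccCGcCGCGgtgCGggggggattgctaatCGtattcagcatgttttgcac
Over the 24 entries that matched 22 of the members, the median was 12.5 CpG dinucleotides and 58.6% G and C, beside 6 and 52.4% for all 32851 promoters of the same length. Both strands were searched for 4 motifs, and matches of different motifs were counted separately, whether or not they overlap. TTCNNNGAA, bound by STAT factors that act downstream of GP130, was in 7.0% of all promoters and in 1 of the 24, that of *Hoxd4*. TGATNNAT, bound by PBX with HOX, was in 7.7% of all and in 4 of the 24, among them the second start of *Hoxd11*. TTTATNG, bound by tail-end HOX proteins, was in 9.8% of all and in 2 of the 24, *Hoxb8* and *Hoxd4*. TGTTCT, a core sequence of progesterone receptor sites, was in 16.1% of all and in 2 of the 24, *Hoxa9* and *Hoxa11*. A match is a description of letters, not a site of binding.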

How the data were processed

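Uterine RNA of 3 control and 3 *Gp130* ecKO females was prepared as strand-specific poly(A) libraries and read as single 75-base reads. Per the submitters' processing notes, the authors used fastp 0.23.2, STAR 2.7.10a, RSEM 1.3.3, edgeR 3.38.4 and R 4.2.1 with GRCm39, and their methods add the removal of ribosomal RNA reads. The annotation version and the strand setting of counting are not given in the sources used here. The authors deposited, per gene and uterus, the expected count (13960748 to 25906443 in all), the TPM and the FPKM, both scaled by them for gene length and depth. Reads that fit several genes are apportioned by RSEM's model. Identifiers were named through GENCODE M39 (56017 of 56748 matched).

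Expected counts were rounded and tested in R 4.3.3 with edgeR 4.0.16 (filterByExpr, TMM, the quasi-likelihood F test without the legacy setting, Benjamini-Hochberg over all 16605 genes). Genes were called at an FDR under 0.05 and more than 2-fold change. CPM values are TMM-scaled, and permutation tests used log2(CPM + 0.5). Alternatives were other tests (with DESeq2 1.42.0 and limma 3.58.1), scalings, filters, thresholds, FPKM, a replicate block and leaving out single uteri. The scripts were tested on simulated data. Cluster shares from counts were added after seeing the data. Members and companion lists were chosen with earlier results of these data known. Members with a mean of at least 1 TPM in either group are given by uterus, and companion genes are named at an unadjusted p under 0.05, with others singled out after their values were seen. The labels number the uteri but do not say how they were collected, so p-values measure the spread between these samples. Protein sequences were not used here.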

Additional observations from a re-analysis of the deposited data

How the results depend on the processing

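The count of 0 called members was 4 with edgeR's exact test, 5 with its likelihood ratio test and 4 with DESeq2, and 0 to 2 when 1 uterus was left out. It stayed at 0 with the legacy quasi-likelihood form, limma-voom, 2 other scalings, both filters, unrounded counts and no fold threshold. The replicate block gave 0 called and 8 members with an unadjusted p under 0.05, by edgeR, beside 22.2% of all genes in that fit. Same-numbered uteri deviated together with correlations of 0.102, 0.061 and −0.190, so the numbers were not read as pairs. The count of members with an unadjusted p under 0.05 was 6 to 12 with 1 uterus left out, and 6 without *Gp130* ecKO uterus 3. DESeq2 called 1 of the Polycomb and trithorax genes. For the genes linked to *Hoxa10* or *Hoxa11*, the exact test called 2 and DESeq2 called 3. Of 381 alternative log2 fold changes of single members, 357 kept direction and side of the FDR threshold of 0.05, taken here without the fold limit. Another 16 passed it newly, and 8 changed sign, in 6 genes. Leaving out 1 uterus gave ranges of −0.18 to 0.07 for *Hoxb2* (above 0 without control uterus 1, and at 0.02 without *Gp130* ecKO uterus 3), −0.01 to 0.24 for *Hoxb3* (lowest without *Gp130* ecKO uterus 2), −0.13 to 0.31 for *Hoxb5* (lowest without *Gp130* ecKO uterus 1, and −0.00 without control uterus 2), −0.02 to 0.42 for *Hoxb6* (lowest without *Gp130* ecKO uterus 1), −0.60 to 0.12 for *Hoxc10* (highest without control uterus 2) and −3.00 to 0.03 for *Hoxd3* (highest without control uterus 3). The cause was not tested. The expressed count of 16 was 15 to 17 under other thresholds. *Hoxc11* rested on at most 17 reads in any uterus. With 3 uteri a group no exact two-sided permutation test can go below 0.1.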
